A study of Mus musculus with 2 samples.

Results

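The 49 genes described here encode proteins that detect or repair DNA damage, out of 21887 protein-coding genes that could be examined. They were named in a list drawn up with the summit calls of these libraries known, so their presence or absence at called summits is a description and carries no test. The libraries were H3K27ac CUT&Tag profiles of colonic macrophages from male C57BL/6 mice 11.1 weeks old. H3K27ac, acetylation of lysine 27 of histone H3, marks active promoters and enhancers, and CUT&Tag uses an antibody to bring a transposase to the marked chromatin. The WT library came from mice with Lyz2-Cre and unmodified Tle4, and the Tle4cKO library from mice with Lyz2-Cre and floxed Tle4 (labelled Tle4f/f Lyz2-Cre). Tle4 encodes a Groucho-family corepressor. Lyz2-Cre is a recombinase driven by the lysozyme 2 gene and acts in myeloid cells generally, not in macrophages alone, and both groups carry it. The sorted cells were Siglec-F-negative, Ly6C-low and CD64-positive, and those of 4 mice were pooled per genotype, which left 1 library of each genotype, no replicate and no test between genotypes.

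The WT list held 10474 summits and the Tle4cKO list 2350, each a position with the authors' −log10 score. A gene without a summit is one where no peak was called. It may still carry acetylation under the calling threshold, and the read depth of either library is unknown. Scores from lists of such unequal length are therefore given side by side and ranked only within their own list. Among macrophage markers, a WT summit at a gene end (within 1 kb of where the gene model begins or stops) was called for 5 of 15 (Cd14, Cd68, Csf2ra, Cx3cr1 and Fcgr1, the gene of the sorted CD64 antigen) and 1, Csf2ra, had one in Tle4cKO; Adgre1, Csf1r, Mertk and the C1q genes had none in either. No epithelial (10 genes), fibroblast and muscle (6) or eosinophil and neutrophil (8) marker had one in either library. Of 8 T cell genes Cd4 had one in WT, and of 7 B and plasma cell genes Cd79b had one in WT and Xbp1 in both. Of 10 proliferation genes, Aurkb and Birc5 had one in WT, and Birc5 also in Tle4cKO. Gene-end summits were called at 22.6% (WT) and 6.19% (Tle4cKO) of all genes, so these short lists do not measure cell purity. With 10 kb added on either side of the gene, 9 macrophage and 5 proliferation genes had WT summits. So did 4 B and plasma cell, 2 T cell, 2 eosinophil and neutrophil and 1 epithelial gene. Tle4cKO ones were at 2 macrophage, 2 B and plasma cell and 1 proliferation gene. In this window the shares of all genes were 39.2% (WT) and 11.6% (Tle4cKO). The part of these markers in the repair gene results was not tested.

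DNA repair runs along several routes. Breaks of both strands are sensed by the Mre11a, Rad50 and Nbn complex and the kinases Atm and Atr, and are either rejoined directly (non-homologous end joining) or copied from the sister chromatid (homologous recombination). Damaged single bases are cut out one at a time by base excision, bulky lesions as a short stretch by nucleotide excision, and copying errors by mismatch repair. Macrophages make reactive oxygen species, which oxidise bases and break strands, and most tissue macrophages divide rarely, so that routes that need a sister chromatid are known chiefly from dividing cells.

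At gene ends, 27 of the 49 genes (55.1%) had a WT summit, where 22.6% of all protein-coding genes did. A Tle4cKO summit was present at 13 (26.5%), against 6.19% of all genes. Every one of these 13 also had a WT summit, and both were called at 5.60% of all genes. None had a Tle4cKO summit alone, as 0.594% of all genes did. A further 14 had a WT summit without a Tle4cKO one (17.0% of all genes) and 22 had neither. Among genes with a WT gene-end summit, 48.1% of the repair genes and 24.7% of all genes were also called in Tle4cKO. Because the genes were listed with these calls known, nothing is read from the distance to the background. The count in WT also depends on the longer list. With that list cut to its 2350 highest scores, 14 of the 49 genes had a WT gene-end summit. Of these 14, 7 also had a Tle4cKO one. The share over all genes under this cut was not computed.

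**Figure D1:**
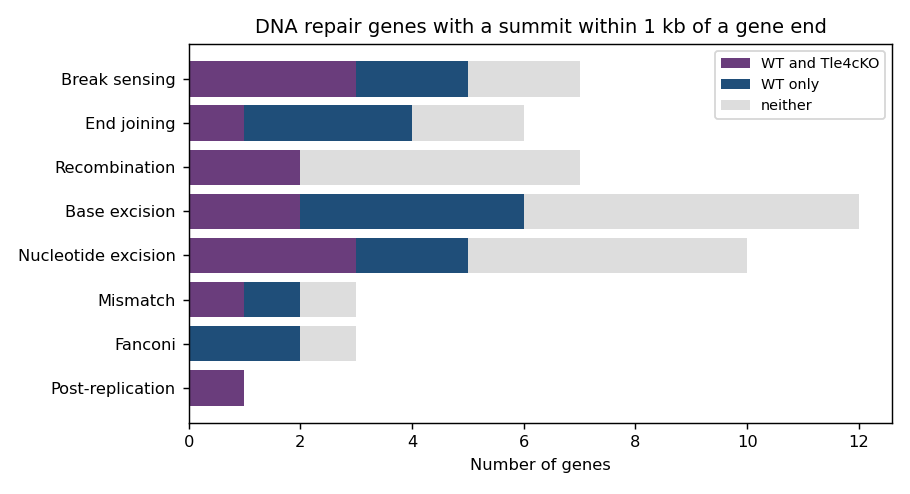
Number of DNA repair genes (x axis) per repair route (y axis) with a summit within 1 kb of a gene end in both libraries, in WT only or in neither. Summits in both libraries were found in 7 of the 8 routes. Of the 3 Fanconi genes drawn, 2 had WT summits alone and 1 had none. Of 12 other Fanconi genes, which are not drawn, 1 had summits in both libraries.

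Among the sensors and signalling genes, 5 of 7 had a WT gene-end summit and 3 also had one in Tle4cKO. Rad17, which loads the checkpoint clamp at damaged DNA, had the highest scores of this route, 10.9 in WT (chr13:100651303) and 7.55 in Tle4cKO (chr13:100651044). Nbn, the signalling subunit of the break-binding complex, scored 8.77 (chr4:15958363) and 7.06 (chr4:15958137). Atm, the kinase that break ends activate, scored 6.43 (chr9:53537230) and 2.49 (chr9:53537197). These 3 genes were thus called in both libraries, and Atm had the lowest Tle4cKO score of all 13. The partners of Nbn in the complex were called in WT alone. Mre11a, its nuclease, had a start summit of 7.64 (chr9:14784833) and a second, higher one of 8.75 inside the gene 50677 bp downstream of the start. Rad50, its ATPase, had a single summit of 5.19 (chr11:53707163). Trp53bp1 (5.21, WT only), whose protein steers breaks towards end joining, had its summit 79 bp downstream of its start site, which lies inside the outermost gene model and therefore outside the gene-end window. Atr, the kinase of stalled replication forks, had no summit at its own ends: those within 10 kb (6.65 in WT and 4.45 in Tle4cKO) lay at the start of Xrn1, an exoribonuclease gene.

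In non-homologous end joining, 4 of 6 genes had a WT gene-end summit and 1 of them a Tle4cKO one. Nhej1, the XLF factor that bridges broken ends, had a WT score of 16.7 (chr1:75125032), which ranked 51 among the 4951 genes with a WT gene-end summit. Its nearest Tle4cKO summit lay 336823 bp away. Xrcc4, the scaffold of the ligase, was the gene called in both, at 8.35 in WT (chr13:90089439) and 4.45 in Tle4cKO (chr13:90089325). The ligase gene Lig4 (2.98, chr8:9978297) and Prkdc (5.68, chr16:15637795), which encodes the DNA-dependent kinase, were called in WT alone. Xrcc6, the Ku70 subunit, had a WT summit of 4.05 at its inner start site. That summit also lay 148 bp from the start of Desi1 on the opposite strand, so it cannot be assigned to Xrcc6 alone. Xrcc5, the Ku80 subunit that pairs with Ku70 at broken ends, had none within 10 kb. The calls thus differed between partners of a common complex (Ku70 and Ku80, Xrcc4 and Lig4). Over all genes with a WT gene-end summit, 24.7% were also called in Tle4cKO, so differing calls say nothing about the complexes.

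Of the 7 homologous recombination genes, Bccip and Brca1 had gene-end summits, each in WT and in Tle4cKO. Among 22 other genes of this route, 12 had a WT gene-end summit and 5 a Tle4cKO one. Bccip, a binding partner of Brca2 and of the cell-cycle inhibitor p21, had the highest scores of all 49 genes, 28.6 in WT (chr7:133709125) and 12.0 in Tle4cKO (chr7:133709122). It ranked 4 among the WT genes and 14 among the 1355 Tle4cKO genes, and its WT and Tle4cKO summits lay 3 bp apart. Brca1, which promotes the resection of breaks, scored 6.00 (chr11:101552397) and 4.22 (chr11:101552305), and had a weaker WT summit of 3.63 in its gene body. Rad52 (3.74), an annealing protein, had a WT summit at its start site alone, and Xrcc2 only a WT summit of 2.39 at 7495 bp outside the gene. Brca2, which loads the recombinase, Palb2, which ties it to Brca1, and Xrcc3 were without any summit as far as 10 kb away.

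Base excision and the repair of single-strand breaks held 12 genes, of which 6 had a WT gene-end summit and 2 a Tle4cKO one. Of the glycosylases, which remove damaged bases, Ogg1, which removes 8-oxoguanine, was called in both libraries at 4.99 (chr6:113327102) and 3.69 (chr6:113326928). Mutyh, which removes adenine paired with 8-oxoguanine, was called in WT alone (7.61, chr4:116807486), and Ung, the uracil glycosylase, in neither. Of the enzymes that follow, Fen1, the nuclease that trims displaced flaps, had a WT score of 14.2 (chr19:10203991), rank 106, and no Tle4cKO summit within 156672 bp. Lig3, the ligase that works with Xrcc1, scored 6.09 in WT (chr11:82781578) and 5.57 in Tle4cKO (chr11:82781583), with the summits 5 bp apart. Its partner Xrcc1 (4.80, chr7:24546935) had a WT summit alone, and the replicative ligase Lig1 had none. Among the poly(ADP-ribose) polymerases, which flag strand breaks, Parp2 had a WT gene-end summit (7.46, chr14:50807728) and Parp3 none. Parp1 had no gene-end summit, and its summits in both libraries (3.77 and 2.71) lay 59 bp apart inside the gene, 19124 bp (WT) from the listed start. A further WT summit of 4.16 lay 1037 bp outside Parp1. The endonuclease gene Apex1 and the polymerase gene Polb had WT summits away from their ends, at 2.23 (Apex1), 3.08 and 3.58 (Polb).

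In nucleotide excision repair, 5 of 10 genes had a WT gene-end summit and 3 a Tle4cKO one. Ercc4, part of the nuclease that cuts 5′ of the lesion, scored 9.69 in WT (chr16:13110105) and 3.24 in Tle4cKO (chr16:13110161), while its partner Ercc1 had no summit at its ends. The Ercc1 summits of 5.36 and 3.99, 3146 and 2955 bp outside the gene, lay at Cd3eap, a gene of RNA polymerase I. Ercc3, a helicase of transcription factor TFIIH, scored 4.61 and 2.84. Xpa, which verifies the lesion, scored 4.15 (chr4:46196258) and 3.35 (chr4:46196053). Both are among the lower WT scores and both were called in Tle4cKO. The partner of Ercc3 in TFIIH, Ercc2, had no summit within 10 kb. Ercc8, a ubiquitin ligase subunit of the transcription-coupled branch, and Rad23b, a partner of the damage sensor Xpc, were called in WT alone at 8.61 (chr13:108158469) and 7.37 (chr4:55350492). Xpc itself and Ercc6, the other transcription-coupled factor, had no summit within 10 kb. Ercc5, the nuclease that cuts 3′ of the lesion, had summits of 4.45 and 3.99, at 1009 and 1191 bp from its outer end, just outside the gene-end window and 213 and 395 bp downstream of its start site.

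The remaining routes were small. In mismatch repair, Msh3, which recognises larger loops, scored 12.9 in WT (chr13:92354901) and 8.66 in Tle4cKO (chr13:92354840), ranks 168 and 60. Msh6, which recognises single mismatches, had a WT summit of 3.77 (chr17:87975472), and Pms2 none. Among the Fanconi genes, which act on crosslinks between the strands, the WT gene-end summits of Fanca (2.54, chr8:123318508) and Fancd2 (3.30, chr6:113531364) ranked 4696 and 4166 of 4951 genes, and Fancc (6.40) had one at an inner start site. None of these 3 had a Tle4cKO summit within 10 kb. A WT summit of 11.0 within 7912 bp of Fancd2 lay at the start of Brk1, an actin regulator gene. Rad18, the ubiquitin ligase of post-replication repair, was called in both libraries at 6.26 (chr6:112696531) and 3.97 (chr6:112696377).

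**Figure D2:**
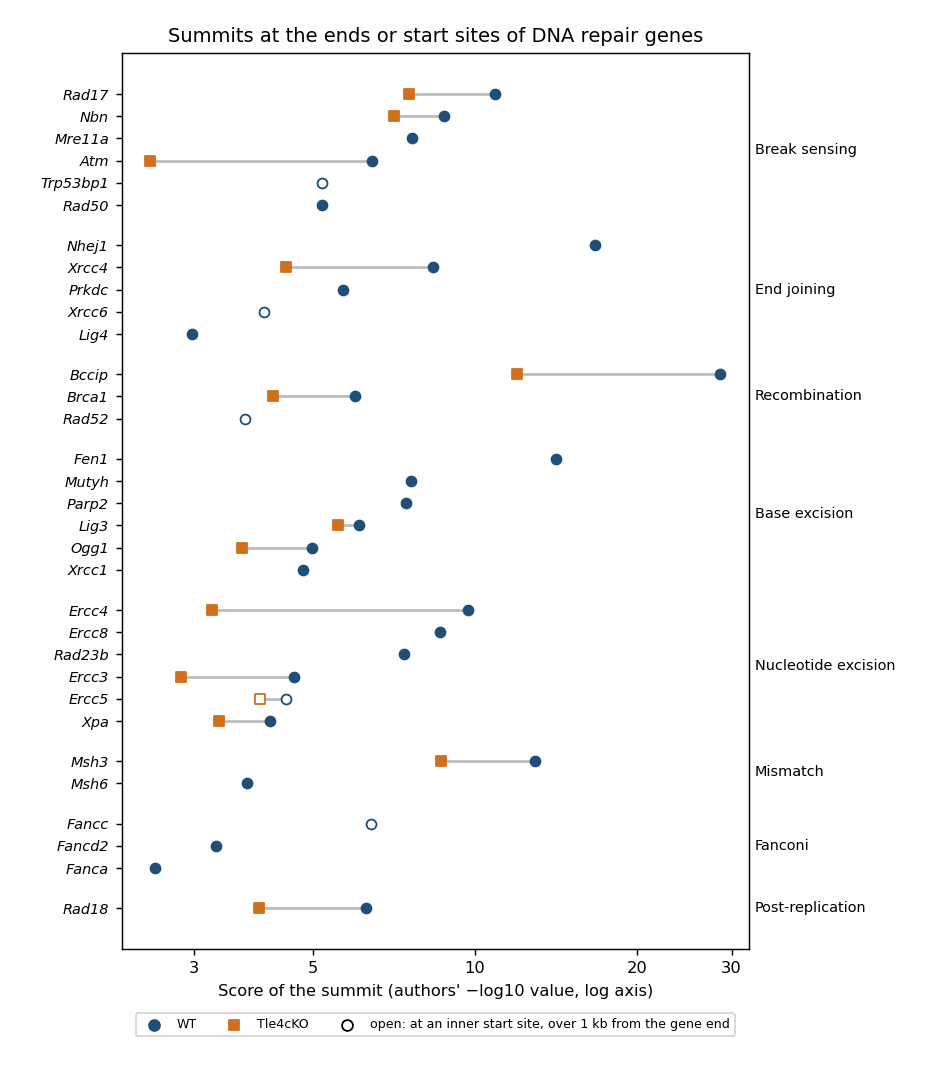
Score of the highest summit within 1 kb of a gene end (filled) or, where there is none, of a listed start site (open), for each DNA repair gene with one, on a log axis, grouped by route. Circles are WT, squares Tle4cKO, and a line joins both values of 1 gene. Bccip is highest of the repair genes in each library, at 28.6 and 12.0; Nhej1 and Fen1 have WT summits alone. Scores from different lists do not measure change between them.

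Across the routes, WT gene-end scores ran from 2.54 (Fanca) to 28.6 (Bccip) with a median of 6.43, against 5.19 for all genes with one. The Tle4cKO scores ran from 2.49 (Atm) to 12.0 (Bccip), with a median of 4.22 against 4.15. Bccip, Nhej1, Fen1, Msh3 and Rad17 fell in the top 10% of WT genes, and 3 of them (Bccip, Msh3, Rad17) in the top 10% of Tle4cKO genes. The median WT score was 6.43 in the 13 genes with both and 6.52 in the 14 with WT alone. Over all genes, the medians were 7.07 and 4.75. By class of WT score, 3 of 8 repair genes scoring under 5 were also called in Tle4cKO (11.5% of all genes in that class), as were 7 of 14 scoring 5 to 10 (30.0%) and 3 of 5 scoring 10 or more (67.3%). The counts are small, and these classes include the calls that the list was drawn up with.

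**Figure D3:**
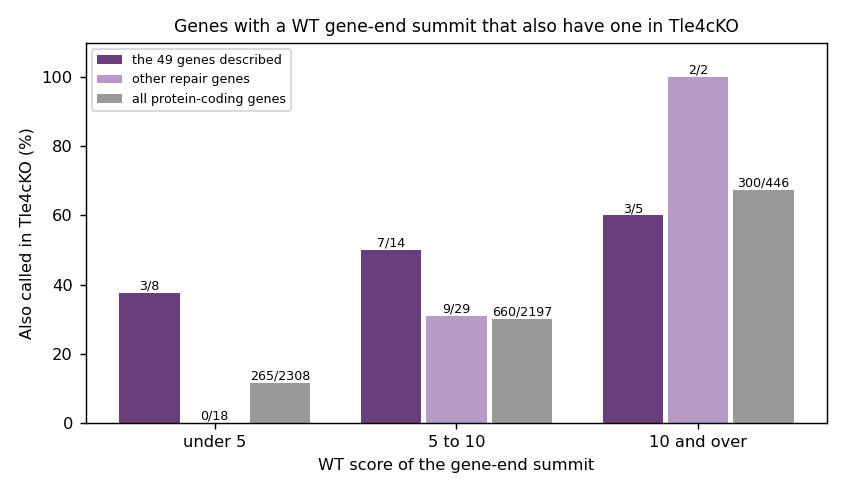
Percentage of genes with a WT gene-end summit that also have one in Tle4cKO (y axis, from 0), by class of WT score (x axis), for the 49 DNA repair genes, 102 other repair genes and all protein-coding genes; fractions above the bars are gene counts. The share grows with the WT score over all genes, from 11.5% to 67.3%, and the classes of repair genes hold few genes.

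The next point was whether the gene-end summits lay where transcription starts. RefSeq promoter entries (GRCm38.p6) were found for 41 of the 49 genes; Rad50, Nbn, Prkdc, Xrcc2, Polb, Xpc, Ercc3 and Fancd2 were not matched. All 22 matched genes with a WT gene-end summit had it within 1 kb of a listed start, as did 93.1% of all matched genes with one. Counted at start sites instead of gene ends, 27 of the 41 genes had a WT summit (25.0% of all matched genes) and 12 a Tle4cKO summit (6.92%). All 12 had both (6.36%). The start-site window added Trp53bp1, Xrcc6, Rad52, Ercc5 and Fancc, whose outermost gene model ends over 1 kb from these summits. WT summits lay from −617 bp (Lig4, upstream) to 469 bp (Lig3, downstream) of the start, with 17 of 27 downstream (61.7% over all genes). Tle4cKO summits lay from −526 bp (Atm) to 474 bp (Lig3), with 8 of 12 downstream. In all 13 genes with gene-end summits in both libraries, the summits lay within 500 bp of each other, as in 94.4% of all genes with both. The distance ran from 3 bp (Bccip) to 259 bp (Rad17), with a median of 92 bp against 101 bp over all genes. The 14 WT-only genes have, by definition, no Tle4cKO summit at their ends. The Tle4cKO summit nearest to their WT gene-end summit was at least 30616 bp away (Parp2), with a median of 318856 bp. This distance was not computed over all WT-only genes, so nothing is read from it.

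**Figure D4:**
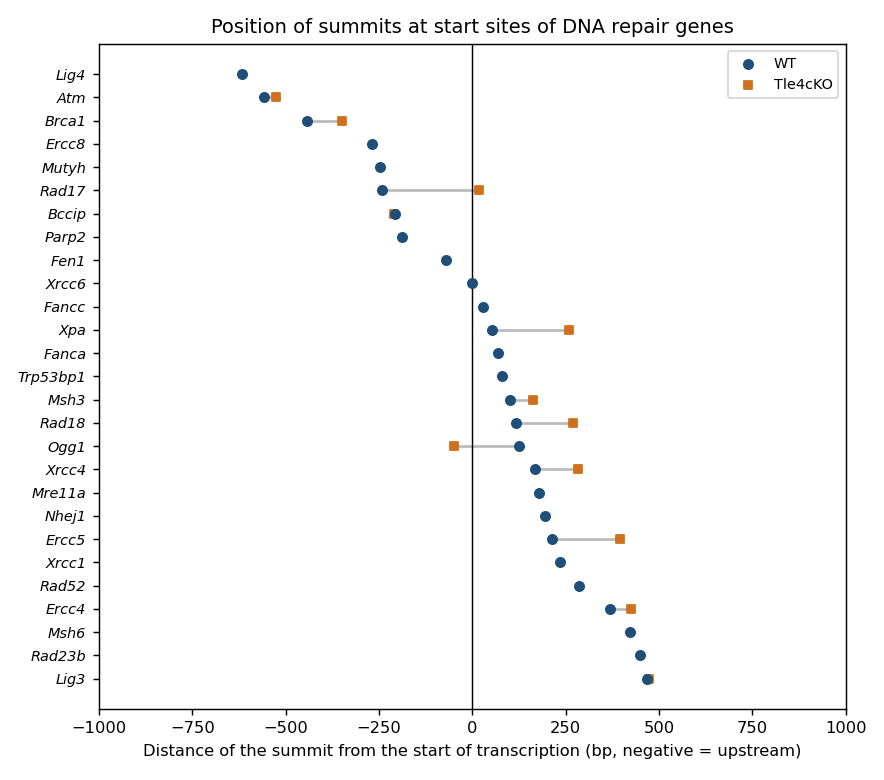
Distance in bp of each start-site summit from the nearest listed start of transcription (x axis, negative is upstream) for the 27 repair genes with a WT one (y axis, sorted by the WT distance); circles are WT, squares Tle4cKO, and lines join both summits of 1 gene. WT summits run from −617 bp at Lig4 to 469 bp at Lig3.

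The promoters below include those of Bccip and Rad17, with WT scores above 10 and summits in both libraries. Msh3 also meets these criteria and is not printed. The other promoters printed are those of the 3 highest among genes called in WT alone (Nhej1, Fen1, Ercc8), and of Xpa, the lowest-scoring WT gene end also called in Tle4cKO. Each runs 5′ to 3′ on the gene's strand from 250 bases before to 50 after the start, on GRCm38.p6. Capitals mark matches to letter strings searched on both strands: CCGGAAGT for ETS factors, the NRF1 palindrome, TTTCCCGC and TTTGGCGC for E2F, GGGCGGGG for SP factors, and TGACGTCA, the cAMP response element. Shorter strings were CCAAT, the box bound by NFY, the E-box written CACGTG, and the start-site element written TATAAA. No string contains another.
Bccip (chr7:133709083-133709382, + strand): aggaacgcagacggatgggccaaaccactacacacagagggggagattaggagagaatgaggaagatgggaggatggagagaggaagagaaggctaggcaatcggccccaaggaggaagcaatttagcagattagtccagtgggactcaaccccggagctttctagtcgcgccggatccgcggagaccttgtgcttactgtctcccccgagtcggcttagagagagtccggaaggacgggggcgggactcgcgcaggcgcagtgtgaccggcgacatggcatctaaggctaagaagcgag
Rad17 (chr13:100651012-100651311, - strand): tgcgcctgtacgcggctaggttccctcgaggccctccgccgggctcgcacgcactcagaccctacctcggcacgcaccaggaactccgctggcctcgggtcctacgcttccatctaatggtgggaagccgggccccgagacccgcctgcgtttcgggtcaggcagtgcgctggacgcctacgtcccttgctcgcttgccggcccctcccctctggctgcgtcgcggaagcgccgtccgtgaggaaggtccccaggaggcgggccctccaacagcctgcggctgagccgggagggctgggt
Nhej1 (chr1:75125177-75125476, - strand): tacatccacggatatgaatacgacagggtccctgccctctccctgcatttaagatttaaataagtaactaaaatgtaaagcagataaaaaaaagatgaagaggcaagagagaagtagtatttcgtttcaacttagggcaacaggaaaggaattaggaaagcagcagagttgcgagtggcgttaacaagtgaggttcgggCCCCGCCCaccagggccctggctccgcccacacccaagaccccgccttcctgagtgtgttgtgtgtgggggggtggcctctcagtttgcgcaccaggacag
Fen1 (chr19:10203872-10204171, - strand): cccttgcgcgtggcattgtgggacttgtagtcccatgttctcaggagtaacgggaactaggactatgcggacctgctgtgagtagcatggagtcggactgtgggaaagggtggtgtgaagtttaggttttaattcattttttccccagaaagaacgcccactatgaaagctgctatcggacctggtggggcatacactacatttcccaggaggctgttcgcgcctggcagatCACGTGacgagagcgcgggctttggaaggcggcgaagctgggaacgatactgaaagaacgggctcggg
Ercc8 (chr13:108158488-108158787, + strand): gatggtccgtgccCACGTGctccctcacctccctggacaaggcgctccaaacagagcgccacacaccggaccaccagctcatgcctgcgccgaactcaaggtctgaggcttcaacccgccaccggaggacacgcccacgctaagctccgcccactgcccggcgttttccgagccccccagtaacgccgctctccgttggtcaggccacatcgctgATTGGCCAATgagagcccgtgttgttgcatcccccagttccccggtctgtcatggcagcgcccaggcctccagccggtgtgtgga
Xpa (chr4:46196262-46196561, - strand): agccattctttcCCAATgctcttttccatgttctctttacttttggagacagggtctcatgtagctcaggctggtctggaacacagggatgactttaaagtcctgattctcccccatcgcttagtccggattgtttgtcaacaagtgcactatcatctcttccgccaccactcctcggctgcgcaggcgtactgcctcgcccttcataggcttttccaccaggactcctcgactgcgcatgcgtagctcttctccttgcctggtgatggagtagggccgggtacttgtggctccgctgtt
The Bccip summits lay inside this window, at −208 bp (WT) and −211 bp (Tle4cKO) from the start. The Rad17 summits lay at −242 bp (WT) and 17 bp (Tle4cKO), and the Fen1 WT summit at −70 bp from the inner of its listed starts. The other summits fell beyond the printed bases. Bccip and Rad17 held none of the strings, while the unprinted Msh3 promoter held a TTTGGCGC match and GGGCGGGG matches. Nhej1 held a single GGGCGGGG match, Fen1 a CACGTG match, Ercc8 adjoining CCAAT matches on opposite strands and a CACGTG match, and Xpa a CCAAT match.

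A gene was counted where any of its listed promoters held the string. Over the 41 matched repair genes, CCAAT was found in 22 (53.7%, against 42.3% of all matched genes), GGGCGGGG in 13 (31.7%, against 26.2%) and CACGTG in 9 (22.0%, against 8.91%). CCGGAAGT and the E2F strings were in 4 genes each, 9.76% of them, against 5.69% and 2.31% of all matched genes. The NRF1 string was in Lig4 and Ercc6 (1.47% of all matched genes), TGACGTCA in Brca2 alone (2.54%), and TATAAA in 4 genes (9.76%, against 14.8%). Among genes with a WT start-site summit, the order turned for 3 strings. GGGCGGGG was in 29.6% of the 27 such repair genes and 36.7% of all such genes. The shares were 7.41% and 12.2% for CCGGAAGT, and 11.1% and 7.56% for TATAAA. For CACGTG they were 14.8% and 12.6%. A match is a run of letters and shows no bound factor. With the promoter of highest count taken for each gene, the repair genes held a median of 23 CpG dinucleotides. The median was 15 over all genes and 23 over all genes with a WT start-site summit.

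Many of the summits stood between neighbouring genes. Of the 27 WT gene-end summits, 15 lay within 1 kb of an end or start of another protein-coding gene (31.8% of all genes with a WT gene-end summit), so the acetylation cannot be assigned to the repair gene alone. For 12 of these the neighbour also starts within 1 kb of the summit. Brca1 shared its summits with Nbr1, an autophagy receptor gene, Atm with Npat, a coactivator of histone genes, and Bccip with Uros, a gene of haem synthesis. Rad17 shared its summits with Ak6 and Taf9, Xrcc4 with Tmem167, and Fen1 with Tmem258, a gene of protein glycosylation. Mutyh (Toe1), Ercc8 (Ndufaf2), Mre11a (Ankrd49), Lig4 (Abhd13), Xrcc1 (Pinlyp) and Fancd2 (Emc3) did so in WT. For Prkdc with Mcm4, a subunit of the replicative helicase, the neighbour's start is not in the table. Nhej1 differed: its neighbour Slc23a3 lies on the same strand, its start is 8858 bp from the summit, and the summit is at the start of Nhej1 and the far end of Slc23a3. The neighbours were found at 6 of the 13 genes called in both libraries and 9 of the 14 called in WT alone. With such summits left out, 12 genes kept a WT gene-end summit and 7 a Tle4cKO one. Neither this count nor the split by library was computed over all genes, so no trait of the repair genes is read from them.

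The pairing of start sites is a feature of the annotation that does not depend on acetylation. Another gene started on the opposite strand within 1 kb at 19 of the 41 matched repair genes (46.3%), against 9.61% of all matched genes. Of the matched other repair genes, 32.1% had such a neighbour. Of these 19, 12 had a WT start-site summit and 5 also a Tle4cKO one. Of the 22 repair genes without such a neighbour, 15 had a WT summit and 7 a Tle4cKO one. Of the other repair genes, 17 of 26 paired starts (65.4%) and 23 of 55 unpaired ones (41.8%) had a WT summit, and 19.2% and 9.09% a Tle4cKO summit. Over all genes, 58.7% of paired and 21.4% of unpaired starts had a WT summit, and 20.3% and 5.50% a Tle4cKO summit. Atr, Palb2, Xrcc3, Apex1, Lig1, Parp3 and Pms2 had a paired start and no summit there.

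With the gene itself and 10 kb on either side, 38 of the 49 genes had a WT summit (39.2% of all genes) and 17 a Tle4cKO one (11.6%), each of which also had a WT one (10.8%). These 17 were 44.7% of the repair genes with a WT summit there, against 27.6% over all genes. This window grows with gene length, and the repair genes were longer, with a median of 34252 bp against 17169 bp. Beyond gene ends and start sites it took in 10 WT summits inside genes and 8 outside them. Of those inside, the Parp1 summit was the one with a Tle4cKO partner within 500 bp, and the Mre11a summit (8.75) had the highest score. Of the 8 outside, 6 lay within 1 kb of another gene: those near Atr, Ercc1 and Fancd2 already given, and those near Ogg1 (at Camk1), Apex1 (at Pip4p1) and Polb (at Ikbkb). No summit of either library was called within 10 kb of 11 genes: Brca2, Palb2 and Xrcc3 of recombination, Xrcc5 of end joining, Ung, Lig1 and Parp3 of base excision, Xpc, Ercc2 and Ercc6 of nucleotide excision, and Pms2 of mismatch repair.

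The other genes of the same routes were examined in the same way, from a list of 102 grouped by route. Of these, 49 (48.0%) had a WT gene-end summit, 12 (11.8%) a Tle4cKO one, and 11 both, where 22.6%, 6.19% and 5.60% of all genes did. Of those with a WT one, 22.4% were also called in Tle4cKO, against 24.7% over all genes. Fancm, a DNA translocase of the Fanconi route, had the highest scores, 18.2 in WT and 9.14 in Tle4cKO, at a summit that also lies at Fkbp3. Atrip, the partner of Atr, was called in both libraries (10.6 and 4.43), while Atr was not called at its ends. Tdg, a thymine glycosylase, scored 8.24 and 6.47, and Uvssa of transcription-coupled repair 6.32 and 3.29. In recombination, Eme1 (9.05 and 3.22), Gen1 (5.25 and 3.78), Sfr1 (9.66 and 4.06) and Rpa3 (7.82 and 4.32) were called in both at 1 end. Rad51d was also called in both (9.82 and 2.89), but at opposite ends of the gene, 19298 bp apart. Babam2 (9.09 and 1.76) and the bypass polymerase gene Polk (6.04 and 3.10) complete the 11. Aplf, an end-joining factor, had a Tle4cKO summit alone (2.45). Called in WT alone and among the 2 highest WT scores of their route were Gtf2h5 (8.27) and Cdk7 (8.17) of TFIIH, Hltf (7.40) and Usp1 (6.54) of post-replication repair, Fancl (5.93), Dclre1c (5.01), Polm (4.97), Pms1 (4.63) and Mbd4 (3.25). In sensing and recombination, where the 2 highest genes were called in both libraries, the highest scores in WT alone were those of Brcc3 (8.72) and Rmi1 (8.16), which were named after their values were seen. For 23 of these other genes, the WT gene-end summit lay within 1 kb of another gene. Besides Fancm, these included Eme1 (Mrpl27), Gen1 (Smc6), Rpa3 (Umad1), Babam2 (Rbks) and Polk (Cert1). Gtf2h5 (Serac1), Brcc3 (Cmc4, Mtcp1), Rmi1 (Hnrnpk), Pms1 (Ormdl1) and Mbd4 (Ift122) were also among them.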

How the data were processed

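H3K27ac CUT&Tag was measured in 1 WT and 1 Tle4cKO library, each pooled from 4 mice. Per the submitters' processing notes, the tools named are cutadapt 1.14 and Bowtie2 2.2.5 and the build is mm10. Which program called the peaks, and at what depth, is not given in the sources used here. For each library the authors deposited 1 list of summits, called on the pooled cells, with a score taken to be −log10 (of p or q, which of them is unknown), because each row is a 1 bp summit and the lowest score (1.35 in WT) lies just above 1.30, the −log10 of 0.05. Mitochondrial summits (4 in WT, 2 in Tle4cKO) were not used. Gene positions and promoters came from RefSeq tables for GRCm38.p6, the assembly of mm10. All 49 symbols matched. Windows were 1 kb around outer gene ends or start sites and the gene with 10 kb on either side; summits within 500 bp counted as shared. The highest score represents a gene. Genes named are all members with a summit, members with none by name, and other repair genes by their Tle4cKO calls or the 2 highest WT scores per route. Promoters are printed for 6 genes, fewer than that rule named, to keep the sequences few, and 1 neighbouring gene is not reported here. The members and lists were chosen with earlier results of these data known. The steps were checked on simulated summits in Python 3.11.15 with pandas 2.3.3.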

Additional observations from a re-analysis of the deposited data

How the results depend on the processing

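Of 50 values recomputed under other settings, 29 stayed within 1.5 times the reported one and 21 did not; gene-end windows of 500 bp and 2 kb, windows of the gene with 5 or 20 kb on either side, start sites, distinct summits and partner distances of 250 bp and 1 kb all stayed within it. At a score of at least 5, gene-end summits remained at 5 repair genes in Tle4cKO and 5 in both, and within 10 kb at 24 in WT, 5 in Tle4cKO and 5 in both; of the other repair genes, 31 remained in WT, 2 in Tle4cKO and 2 in both. At a score of at least 10, gene ends kept 5 in WT, 1 in Tle4cKO and 1 in both, and the 10 kb window 6, 1 and 1. With the WT list cut to its 2350 highest scores, 14 repair genes had a WT gene-end summit and 7 had both, and within 10 kb 17 had a WT summit and 8 both. Without summits near another gene, 12 had a WT gene-end summit, 7 a Tle4cKO one and 7 both. With lists of equal length the WT and Tle4cKO counts at gene ends were thus 14 and 13, against 27 and 13. The cut list and the removal of summits near another gene were not computed over all genes. These counts therefore have no background and show no trait of the repair genes. Depth limits every absence. No paired analysis was possible because each genotype has 1 library.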

Other observations

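The 14 matched repair genes with no summit at a start site did not have promoters poor in CpG. Their median was 22 CpG dinucleotides, counted in the promoter of highest count of each gene. It was 25 in the 27 with a WT start-site summit and 24 in the 12 called in both libraries. CACGTG was found in 5 of these 14 genes (Xrcc5, Ercc6, Parp1, Apex1 and Lig1) and in 4 of the 27. CCAAT was found in 7 of the 14 and 15 of the 27. Over all matched genes the shares were 8.91% (CACGTG) and 42.3% (CCAAT). Over those with a WT start-site summit they were 12.6% and 43.8%. Shares over all genes without such a summit were not computed, so the counts in the 14 have no background. In Apex1, 3 CACGTG matches begin at bases −24, 1 and 22 counted from the start. These are counts from a small set, with no test.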
